A study of Mus musculus with 16 samples.

Results

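The dystrophin-associated complex and the membrane repair protein dysferlin were followed at the RNA level in hamstring muscle of mice with experimental myositis. The members were 8 genes, namely *Dmd*, *Utrn*, *Sgca*, *Sgcb*, *Sgcd*, *Dag1*, *Dtna* and *Dysf*, taken from the deposited expression table by their gene symbols, out of 26382 genes in all. The study induced myositis with recombinant murine histidyl-tRNA synthetase (HRS), the enzyme that charges histidine onto its tRNA and is the Jo-1 autoantigen of human disease. Bulk RNA of 16 hamstring libraries from 9 mice was sequenced after poly(A) selection. All mice were female C57BL/6 animals, aged 8 to 10 weeks at injection and killed at day 14, and no genetic change was named for any of them.

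The HRS leg group held the left legs of 5 mice (m862 to m866), whose titles name the injected left leg and whose treatment entries read HRS at 3 to 5 mg/mL. The contralateral PBS leg group held the right, PBS-injected legs of the same 5 mice. The PBS-only leg group held 4 legs of 2 mice (m867 and m868) that received PBS alone, so that 4 libraries stood for 2 animals. The HRS-MBP group held 2 mice (m860 and m861) whose titles name an MBP fusion protein at 2 to 3 mg/mL, while their treatment entry reads HRS at 3 to 5 mg/mL, and whose injected side is not given. The general protocol speaks of injection into both sides, whereas the titles separate an injected from a PBS leg, and the titles were followed. A contralateral leg is therefore a leg of an immunized animal and not of an untreated one.

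Dystrophin is a long rod-shaped protein that ties the actin cytoskeleton beneath the muscle fibre membrane to dystroglycan, which binds laminin in the basement membrane. The sarcoglycans stabilise this link from within the membrane, the dystrobrevins and syntrophins dock signalling proteins on its inner face, and utrophin is a close relative of dystrophin that in adult muscle is concentrated at neuromuscular and myotendinous junctions. Dysferlin acts beside this complex by resealing membrane tears, and loss of several of these proteins causes muscular dystrophy in people.

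In the main comparison, HRS legs had lower levels than contralateral PBS legs for *Dmd*, *Sgca*, *Sgcb*, *Sgcd*, *Dag1* and *Dtna* and a higher level of *Utrn* on the scale of the deposited values, while *Dysf* did not pass the test. *Sgca*, with a 2.29-fold lower level, moved most. The legs are those of the same 5 mice, and with mouse as a block in limma only *Sgca* kept its call, the other 6 having adjusted p of 0.0581 to 0.162. Set against the mean log2 level of the mature fibre markers of the same library, the 5 lower members other than *Sgca* were instead higher in the HRS leg, as was *Dysf*. *Sgca* did not pass the test, and *Utrn* remained higher. On that scale 13414 of all 16414 tested genes were higher, so that 7 of 8 members is near the share of all genes. The ratio of *Utrn* to *Dmd*, in which the scaling factor of a library cancels apart from the 0.5 added before the log, was higher in the HRS leg than in the PBS leg of 4 of 5 mice.

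The proximal upstream sequence of 3 members is shown. *Sgca* was taken as the member that fell most, *Dmd* as the one with MEF2 and CArG matches and *Dag1* as the one richest in GC. The motifs of *Dmd* and the GC content of *Dag1* given below were thus part of the choice and are no result about the members. The sequences are RefSeq promoter windows on GRCm38.p6, trimmed to the 250 bases before the start site, 5′ to 3′ on the strand of the gene. They lie at chrX:82948620-82948869 on the plus strand for *Dmd*, at chr11:94976328-94976577 on the minus strand for *Sgca* and at chr9:108263959-108264208 on the minus strand for *Dag1*. Capitals mark every match to CANNTG (the E-box that myogenic bHLH factors bind), GGGCGG (the GC box), the MEF2 motif and the CArG box of serum response factor, on either strand.
Dmd: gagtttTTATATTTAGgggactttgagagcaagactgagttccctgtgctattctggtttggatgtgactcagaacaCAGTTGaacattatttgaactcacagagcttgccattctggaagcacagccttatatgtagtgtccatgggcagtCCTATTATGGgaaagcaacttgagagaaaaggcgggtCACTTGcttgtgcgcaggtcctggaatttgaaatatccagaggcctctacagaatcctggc
Sgca: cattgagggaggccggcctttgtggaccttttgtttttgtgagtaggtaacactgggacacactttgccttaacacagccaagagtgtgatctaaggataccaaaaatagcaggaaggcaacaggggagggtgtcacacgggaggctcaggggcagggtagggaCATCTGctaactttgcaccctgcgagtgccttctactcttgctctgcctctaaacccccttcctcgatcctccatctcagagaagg
Dag1: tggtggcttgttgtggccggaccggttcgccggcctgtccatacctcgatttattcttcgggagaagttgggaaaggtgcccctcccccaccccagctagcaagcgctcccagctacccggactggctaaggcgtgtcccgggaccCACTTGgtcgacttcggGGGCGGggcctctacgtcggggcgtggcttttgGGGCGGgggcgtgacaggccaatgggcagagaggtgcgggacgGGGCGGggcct

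The *Dmd* window held a MEF2 motif 244 to 235 bases before the start, a CArG box 98 to 89 bases before it and CANNTG at 173 to 168 and 61 to 56 bases before it. Its GC content was 45.2%, with 2 CG dinucleotides. The window of a second *Dmd* start, further inside the gene, held 3 GGGCGG and 0 matches to CANNTG, the MEF2 motif or the CArG box. The *Sgca* window held 1 CANNTG, 86 to 81 bases before the start, at a GC content of 52.8% with 4 CG dinucleotides. The *Dag1* window was of another kind, with a GC content of 67.6%, 21 CG dinucleotides, 3 GGGCGG and 1 CANNTG. Over 32851 RefSeq mouse promoter windows of the same length the median GC content was 52.4% with 6 CG dinucleotides, and 66.2% held CANNTG, 32.7% GGGCGG, 2.92% the MEF2 motif and 1.47% the CArG box. CAGCTG, the form of CANNTG found in 13.0% of windows, was in none of the 3. No motif of one kind overlapped one of another, and 7 of the 8 members had an entry in the RefSeq table. A match is a description of the letters and not of binding.

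Libraries differed in depth and in composition. The implied depth, from the step between low values, ranged from 8600000 to 73900000 reads, and even *Sgcd*, the least abundant member, was worth 46 reads in the library where it had fewest. The sum over 14 mature fibre markers lay between 54660 and 134560 in the HRS legs of m862 to m865, between 171090 and 280360 in contralateral PBS legs and between 210420 and 251240 in PBS-only legs. The sum over 13 immune cell markers lay between 1042 and 5292 in HRS legs against 88.8 to 256 in contralateral PBS legs. Of the marker lists, 10 of 14 mature fibre markers were lower in HRS legs than in contralateral PBS legs, while 13 of 13 immune cell, 7 of 7 fibroblast and 8 of 12 regenerating muscle markers were higher. With mouse as a block 0 of the 14 mature fibre markers were called lower and after quantile normalization 4, while 13 immune cell, 6 fibroblast and 7 regenerating muscle markers were higher under the block. Endothelial markers had 1 higher and 1 lower of 7, smooth muscle and pericyte markers 2 higher and 3 lower of 7, and Schwann cell markers 1 higher of 6. The mature fibre markers that define the tissue were present in each library, and the markers at 0 in some PBS library were *Mymx*, *Cd8a*, *Cd79a* and *Ms4a1*. Fewer cells of a type and less RNA per cell cannot be told apart in such bulk samples, and the part of cell composition in the results below was not tested.

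Mouse m866 stood apart from the other 4 immunized mice. Its HRS leg had a mature fibre sum of 230230, above that of its own PBS leg at 171090, and a fibroblast sum of 2530, where the HRS legs of the other mice had 14181 to 24503. Its immune sum of 1042 was nevertheless above that of all 9 PBS legs, of which the highest was 256. On the first principal component of all tested genes, with 77.3% of the variance, the HRS leg of m866 lay at 2.84, between the other HRS legs at -123 to -65.4 and all PBS legs at 37.9 to 79.3. Its labels were kept, and the members' comparisons of HRS legs with both PBS groups are given with and without it.

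Dystrophin, the actin-binding rod of the complex, is encoded by *Dmd* at chrX:82948870-85206141 on the plus strand, with 79 exons in the longest coding transcript. In m862 to m866 the HRS legs had normalized counts of 56.2, 37.8, 29.7, 49.0 and 70.7. The PBS legs opposite had 83.4, 85.8, 70.9, 76.0 and 50.4. In 4 mice the HRS leg was below its own PBS leg and in m866 it was above, so that the 2 groups overlapped. PBS-only legs were close together, at 76.1 and 72.3 in m867 and 63.1 and 72.7 in m868. The HRS-MBP mice, at 39.5 and 39.0, lay below all PBS legs. *Dmd* fell by 0.62 on the log2 scale (SE 0.20) from the contralateral PBS to the HRS leg, with an adjusted p of 0.0126 in limma's test over 16414 genes.

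Utrophin, the relative of dystrophin, is encoded by *Utrn* at chr10:12382188-12869365 on the minus strand, with 74 exons. The 5 HRS legs, in the order m862 to m866, had 38.6, 38.2, 35.9, 41.5 and 30.4 normalized counts. Their PBS legs had 21.4, 25.7, 23.4, 25.5 and 41.0. *Utrn* was the only member higher in the HRS leg of m862 to m865, and in m866 it turned the other way, from 41.0 in the PBS leg to 30.4 in the HRS leg. PBS-only legs had 29.9, 23.7, 24.7 and 29.7, and the HRS-MBP mice had 36.0 each. All 5 HRS legs and both HRS-MBP mice were above all PBS-only legs, the closest pair being 30.4 in the HRS leg of m866 and 29.9. *Utrn* rose by 0.45 on the log2 scale (SE 0.15, adjusted p = 0.0157, limma) against the contralateral PBS leg.

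Dystroglycan, the laminin receptor of the fibre membrane to which dystrophin and utrophin bind, is encoded by *Dag1* at chr9:108204634-108263958 on the minus strand. From m862 to m866 the HRS legs had 316, 257, 182, 280 and 337 normalized counts. The PBS legs of those mice had 346, 393, 390, 345 and 298. The differences between legs were uneven, from 0.13 lower in m862 to 1.10 lower in m864 on the log2 scale, and m866 was higher by 0.18. PBS-only legs had 432, 376, 336 and 440, and the HRS-MBP mice had 216 and 160. Only the HRS-MBP mice were separated from PBS-only legs, whose lowest value of 336 was just under the 337 of the HRS leg of m866. *Dag1* fell by 0.39 (SE 0.16) against the contralateral PBS leg with an adjusted p of 0.0452 in limma, close to the threshold of 0.05.

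The sarcoglycans are membrane-spanning partners of dystroglycan, and *Sgca* encodes the alpha subunit, which is largely restricted to striated muscle. It lies at chr11:94962791-94976327 on the minus strand and has 11 exons. HRS legs of m862 to m866 had 76.9, 55.6, 32.9, 59.2 and 134 normalized counts. The PBS legs had 170, 157, 145, 167 and 111. In m864 the HRS leg was lower by 2.13 on the log2 scale, the largest leg difference of any member, and in m862, m863 and m865 it was lower by 1.14 to 1.49. PBS-only legs had 141, 145, 141 and 134, and the HRS-MBP mice had 56.8 and 61.5. Against PBS-only legs the HRS legs did not overlap, although the HRS leg of m866 at 133.84 was just under the lowest PBS-only leg at 134.35. *Sgca* fell by 1.20 (SE 0.26, adjusted p = 0.00143, limma) against the contralateral PBS leg, and 3.58% of all tested genes had a lower fold change.

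*Sgcb*, for the beta subunit, lies at chr5:73632749-73647790 on the minus strand and has 6 exons. Taken from m862 to m866, HRS legs had 118, 97.5, 68.1, 103 and 160 normalized counts. The PBS legs had 178, 188, 171, 171 and 124. The order of the mice was that of *Sgca*, with m864 the lowest HRS leg and m866 the only mouse in which the HRS leg was higher. PBS-only legs had 192, 185, 157 and 179, and the HRS-MBP mice had 87.1 and 85.3. *Sgcb* fell by 0.64 (SE 0.18) against the contralateral PBS leg, with an adjusted p of 0.00609 in limma.

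*Sgcd*, for the delta subunit, spans chr11:46896253-47988969 on the minus strand with 7 exons in its longest coding transcript, and was the least abundant member. In the HRS legs of m862 to m866 *Sgcd* had 3.85, 3.52, 2.73, 2.85 and 3.93 normalized counts. The PBS legs had 4.90, 4.85, 4.02, 5.09 and 4.28. *Sgcd* was the only member lower in the HRS leg of all 5 mice and the only one whose HRS and contralateral PBS legs did not overlap, the nearest values being 3.93 and 4.02. PBS-only legs had 4.23, 4.41, 5.58 and 5.67, and the HRS-MBP mice had 1.996 and 2.09. The HRS-MBP mice were thus below all other libraries for *Sgcd*. It fell by 0.41 (SE 0.13, adjusted p = 0.0140, limma) between legs.

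Alpha-dystrobrevin, the dystrophin-related protein that carries syntrophins on the inner face of the complex, is encoded by *Dtna* on chromosome 18. Mice m862 to m866 had HRS legs at 103, 66.9, 49.6, 77.5 and 120.0 normalized counts. The PBS legs had 127, 127, 113, 119 and 87.2. The HRS leg of m866 lay within the range of the PBS legs, and the other HRS legs were below all contralateral PBS legs, except that m862 was above the PBS leg of m866. PBS-only legs had 120, 117, 90.7 and 114, and the HRS-MBP mice had 68.4 and 58.0. *Dtna* fell by 0.51 (SE 0.20, adjusted p = 0.0331, limma) between legs. Of its annotated exon bases, 0.532% are shared with *Gm47898* on the other strand, whose mean level was 1.64 over all libraries.

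Dysferlin, the ferlin that patches torn membrane with vesicles, is encoded by *Dysf* at chr6:84008590-84211060 on the plus strand, with 55 exons. The HRS legs of the 5 mice, m862 first, had 68.6, 61.9, 40.2, 56.0 and 67.0 normalized counts. The PBS legs had 69.8, 78.5, 65.4, 70.6 and 53.5. The legs of m862 were nearly equal and the groups overlapped widely. PBS-only legs had 87.0, 71.2, 72.4 and 96.3, and the HRS-MBP mice had 48.1 and 36.7. All HRS legs were therefore below all PBS-only legs, which was not so against contralateral legs. The log2 fold change between legs was -0.21 (SE 0.15, 95% interval -0.54 to 0.11), with an adjusted p of 0.232 in limma. *Gm15475* and *Gm33024* share 4.23% and 1.26% of its exon bases on the opposite strand, and averaged 0.0350 and 0.0212 normalized counts.

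**Figure D1:**
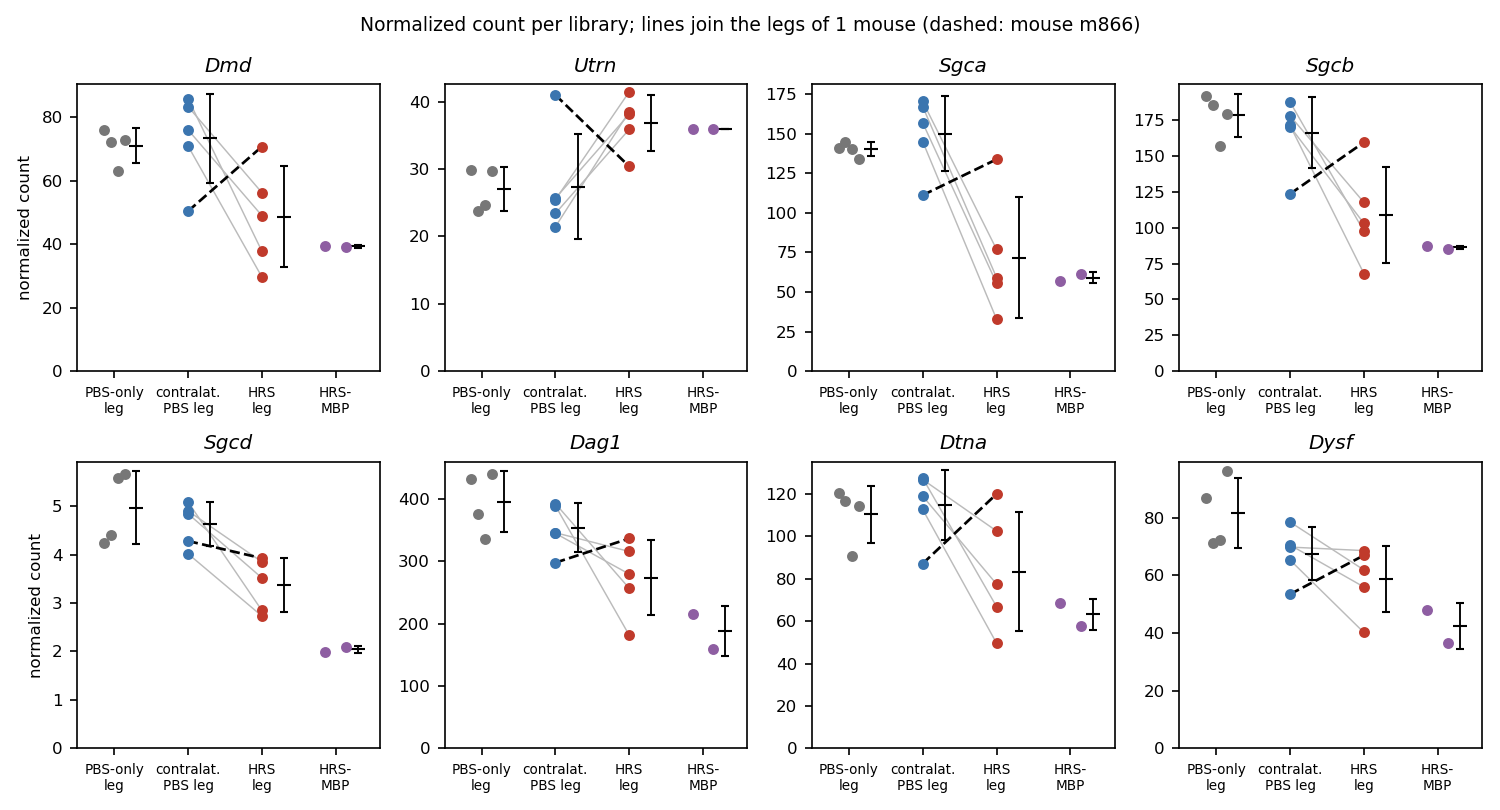
Normalized count (y axis, from 0) of each member in every library of the 4 groups, with the mean and SD of each group as a bar beside the points and lines joining the 2 legs of 1 mouse. In 4 mice the lines fall for 7 members and rise for *Utrn*, and the dashed line of m866 runs the other way for all members but *Sgcd*.

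Among themselves the members kept a wide range of abundance. Divided by the length of the longest coding transcript, PBS-only legs had 81.3 ± 2.53 normalized counts per kb for *Sgca* (SD, n = 4 legs of 2 mice), 69.9 ± 8.67 for *Dag1* and 47.1 ± 4.02 for *Sgcb*. *Dtna* followed with 17.6 ± 2.13 and *Dysf* with 12.0 ± 1.78. *Dmd* had 4.77 ± 0.374, *Utrn* 2.18 ± 0.262 and *Sgcd* 2.03 ± 0.309 normalized counts per kb. Neighbours in this order did not overlap between legs, except for *Utrn* and *Sgcd*, with ranges of 1.92 to 2.41 and 1.73 to 2.31. In HRS legs *Dag1* stood first with 48.4 ± 10.7 and *Sgca* second with 41.6 ± 22.1 normalized counts per kb (n = 5), with overlapping ranges. Lengths of the transcripts in use are not known, and over all annotated exon bases *Dysf*, at 9.82 per kb, preceded *Dtna* at 6.53 in PBS-only legs.

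The leg pairs of the 5 immunized mice asked whether the injected leg differed from the other leg of its own animal. *Sgcd* was lower in 5 of 5 mice, with an exact two-sided sign-flip p of 0.063, the smallest that 5 pairs allow. *Dmd*, *Sgca* and *Sgcb* were lower in 4 of 5 mice and *Utrn* was higher in 4 of 5, each with an exact p of 0.13. *Dag1*, *Dtna* and *Dysf* were lower in 4 of 5 mice with an exact p of 0.19. No member could pass 0.05 in this design. Of all tested genes 8.97% were lower and 26.3% higher in the HRS leg of all 5 mice. The leg difference varied in size between mice. In m864 the log2 differences of the members other than *Utrn* and *Sgcd* ran from -2.13 to -0.69, whereas in m862 they ran from -1.14 to -0.03.

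**Figure D2:**
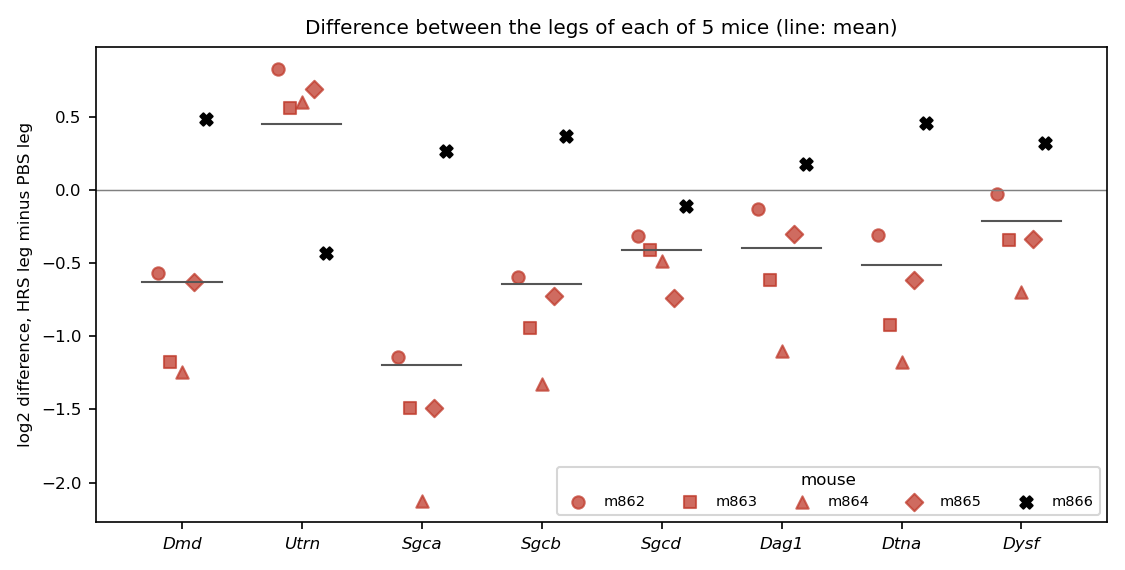
Log2 difference between the HRS and the PBS leg of each mouse (y axis, log2 of normalized count + 0.5) for the 8 members, with 1 symbol per mouse and a line at the mean. Mouse m866, the black cross, lies on the other side of 0 from the other 4 mice for 7 members, and only *Sgcd* is below 0 in all 5.

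Counted over the fit of all groups, 6 of 8 members were lower and 1 was higher in the HRS leg than in the contralateral PBS leg at an adjusted p under 0.05. Among all 16414 tested genes 25.9% were lower and 35.1% were higher by the same rule. The members' median log2 fold change was -0.46 against 0.08 for all tested genes. Exact two-sided permutation tests of the single members over the 10 legs gave p = 0.00794 for *Sgcd*, the smallest possible, 0.0159 for *Sgca* and *Sgcb*, 0.0397 for *Dmd*, *Utrn* and *Dag1*, 0.0714 for *Dtna* and 0.238 for *Dysf*. These permutations left out the pairing of legs by mouse and made no adjustment for the 8 tests. With the mouse as a fixed block, which pairs the legs as the labels do, 1 member was called lower and 0 higher, *Sgca* at an adjusted p of 0.0289. The same fit called 2651 genes lower and 4569 higher of all tested, fewer than the 4255 and 5764 without the block. The blocked adjusted p in limma was 0.0581 for *Sgcd*, 0.0648 for *Sgcb*, 0.0823 for *Dmd*, 0.0949 for *Utrn*, 0.115 for *Dtna* and 0.162 for *Dag1*. *Dag1* and *Dtna* lost their calls in 7 of the 10 fits that left out 1 leg, and without both legs of m864 3 members were called lower and 0 higher, where 3220 genes were lower and 4692 higher of all tested.

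Without the HRS leg of m866 the same 6 members were lower and *Utrn* was higher, against 30.2% lower and 38.2% higher of all genes. *Sgca* then fell by 1.46 (SE 0.18, adjusted p = 6.04e-06, limma) and *Dmd* by 0.77 (SE 0.17, adjusted p = 0.00103). This leg was singled out because it stood apart in the same data, so the smaller SEs and p-values are no independent support. *Dysf* had a log2 fold change of -0.27 with an adjusted p of 0.139. With both legs of m866 left out, the log2 fold changes were -1.56 for *Sgca*, -0.90 for *Dmd* and *Sgcb* and 0.67 for *Utrn*.

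The HRS leg was next compared with legs of mice that had received PBS alone. Here 6 members were lower and *Utrn* was higher, against 22.6% lower and 38.1% higher of all tested genes. The count turned to 0 lower and 5 higher relative to mature fibre markers, where 12708 genes were higher. With equal totals 2 were lower and *Utrn* higher, where 1944 genes were lower and 9082 higher of all tested. As deposited, *Sgca* fell by 1.11 (SE 0.27, adjusted p = 0.00312, limma), *Sgcb* by 0.76 (adjusted p = 0.00344), *Dmd* by 0.60 (adjusted p = 0.0213) and *Dag1* by 0.55 (adjusted p = 0.0120). *Sgcd* fell by 0.50 (adjusted p = 0.00672) and *Dysf* by 0.49 (adjusted p = 0.0170). The member not called was *Dtna*, with a log2 fold change of -0.46 and an adjusted p of 0.0633, whereas *Dysf* was the one not called against contralateral legs. *Utrn* rose by 0.44 (SE 0.16, adjusted p = 0.0242). Without the HRS leg of m866, singled out from the same data, *Dtna* was called as well, falling by 0.61 (adjusted p = 0.00763, limma). In that fit 7 members were lower and *Utrn* higher, against 27.4% lower and 40.7% higher of all genes. Both comparisons use the same 5 HRS legs, and what separates them is the PBS group, compared directly below. The p-values take 4 legs of 2 mice as 4 samples. With the legs averaged by mouse, 3 members (*Sgca*, *Sgcb* and *Sgcd*) were called lower and 0 higher, where 2371 genes were lower and 5233 higher of all tested, and *Utrn* had an adjusted p of 0.0816. Leaving out 1 library ended the calls of *Dmd* and *Utrn* in 3 of 9 fits each.

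The groups did not overlap for *Sgca*, *Sgcd* and *Dysf*, which were lower in HRS than in PBS-only legs, and for *Utrn*, which was higher. Of all tested genes 5.18% were separated in this way with HRS legs lower and 26.6% with HRS legs higher. Against contralateral PBS legs *Sgcd* alone was separated, where 3.19% of genes were separated with HRS legs lower.

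The PBS leg of immunized mice was compared with PBS-only legs to ask whether the opposite leg was itself altered. In limma's test 0 members were called, and 0 had an unadjusted p under 0.05, against 902 such genes of all tested. Of all genes 0% were called higher and 0.00609%, a single gene, lower. The members' log2 fold changes ranged from -0.27 for *Dysf* (95% interval -0.62 to 0.07) to 0.08 for *Sgca* (-0.50 to 0.66). For *Dmd* the interval was -0.42 to 0.47 and for *Utrn* -0.35 to 0.32. The interval of *Dag1*, -0.52 to 0.20, holds its log2 fold change of -0.39 between legs, whereas those of *Dmd*, *Utrn* and *Sgca* stop short of the -0.62, 0.45 and -1.20 found between legs.

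In the HRS-MBP mice 7 members were lower than in PBS-only legs and 0 were higher, against 23.8% lower and 33.2% higher of all tested genes. The members' median log2 fold change was -0.99 and that of all genes 0.11. *Sgca* fell by 1.24 (SE 0.35, adjusted p = 0.00812, limma), *Sgcd* by 1.10 (SE 0.18, adjusted p = 0.000182), *Dag1* by 1.08 (SE 0.22, adjusted p = 0.00104) and *Sgcb* by 1.04 (SE 0.24, adjusted p = 0.00259). *Dysf* fell by 0.94 (adjusted p = 0.00183), *Dmd* by 0.84 (adjusted p = 0.0149) and *Dtna* by 0.80 (adjusted p = 0.0194). *Utrn* had a log2 fold change of 0.41 (95% interval -0.02 to 0.85) with an adjusted p of 0.0920. All 8 members were separated from PBS-only legs without overlap, 7 lower and 1 higher, while 30.6% of all genes were separated lower and 39.8% higher. The exact permutation test, which takes the 4 PBS-only legs of 2 mice as 4 samples, cannot go below 0.0667 here. Without m860 the log2 fold change was -1.30 for *Dag1*, -1.13 for *Dysf* and -0.92 for *Dtna*, and without m861 -0.86, -0.75 and -0.68. Relative to mature fibre markers these 7 members had positive log2 fold changes from 0.09 to 0.53, of which *Dtna* was called at 0.53, and *Utrn* was called higher at 1.75. The median of all tested genes on that scale was 1.44, with 12206 genes higher and 116 lower, so that these 7 members lay below the median.

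The HRS-MBP mice and the HRS legs were compared directly, since both were set against the same PBS-only legs above. In limma's test 0 members were called, against 0.426% of genes higher and 0.134% lower. At an unadjusted p under 0.05 were 3 members and 2371 of all genes. These were *Sgcd* with a log2 fold change of -0.60 (adjusted p = 0.150), *Dag1* with -0.53 (adjusted p = 0.283) and *Dysf* with -0.45 (adjusted p = 0.325). For *Sgcd* both HRS-MBP mice lay below all 5 HRS legs, as did 8.40% of all genes. The 95% interval for *Sgca* was -0.85 to 0.60 and for *Utrn* -0.45 to 0.39, so that with 2 mice the groups are not shown to be alike. Protein, and perhaps concentration and side, differed together between these groups and cannot be told apart.

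**Figure D3:**
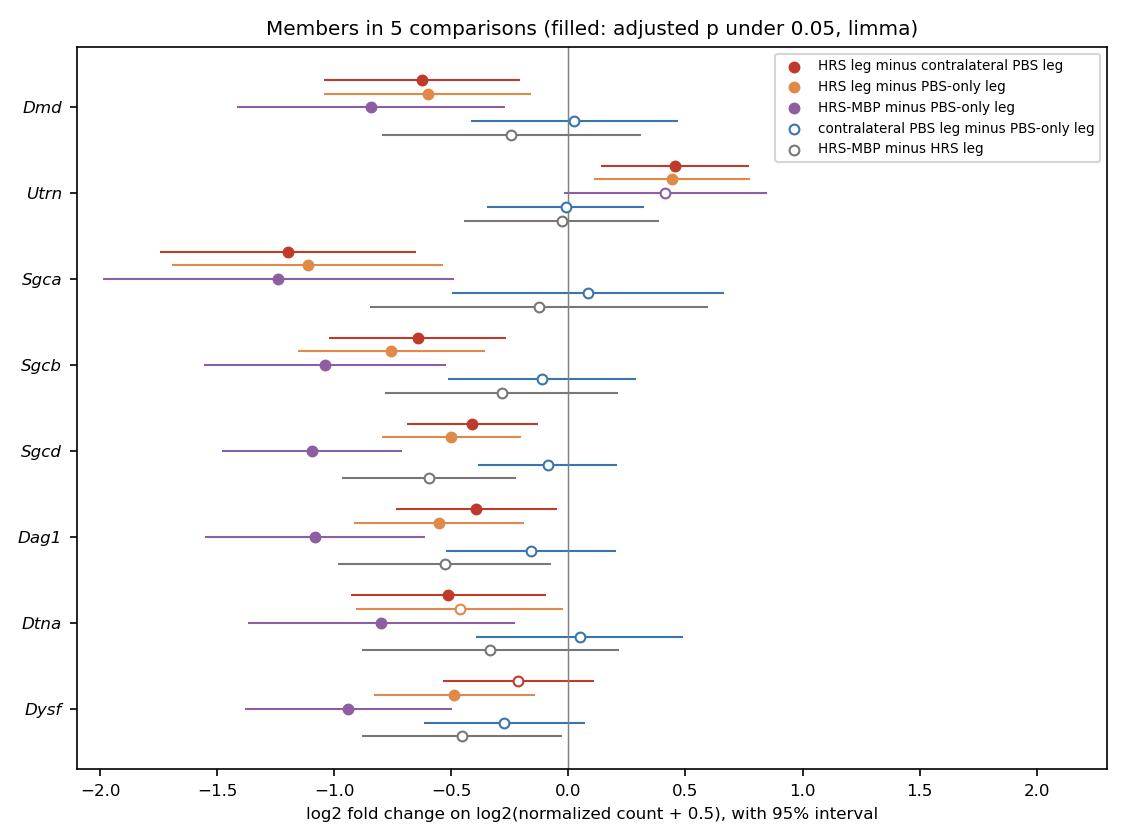
Log2 fold change (x axis) with its 95% interval for each member in 5 comparisons, filled where the adjusted p was under 0.05 in limma. The 3 comparisons of HRS-injected with PBS muscle lie left of 0 for 7 members and right of 0 for *Utrn* on the deposited scale (relative to mature fibre markers, 6 of the 7 in HRS legs and all 7 in HRS-MBP mice lie right of 0), and the contralateral PBS leg lies around 0.

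The direction of most members depended on what the libraries were scaled to. With library totals made equal, *Sgca* alone was called lower in HRS than in contralateral PBS legs (-0.78) and *Utrn* higher (0.87), where 2066 genes were lower and 8959 higher of all tested. *Dag1* (0.02) and *Dysf* (0.20) changed sign without passing the test. Relative to the mean log2 level of the 14 mature fibre markers, 7 members were higher and 0 lower: *Utrn* by 1.56, *Dysf* by 0.90, *Dag1* by 0.72, *Sgcd* by 0.70, *Dtna* by 0.60, *Dmd* by 0.49 and *Sgcb* by 0.47 on the log2 scale. *Sgca* was the only member at -0.09, with an adjusted p of 0.526 in limma. This scaling moved the median of all tested genes to 1.19, with 13414 genes higher and 160 lower, so that the members other than *Utrn* lay below that median. Equal totals moved the median of all genes to 0.45. The share of higher among all called genes was 57.5% as deposited, 39.0% after quantile normalization, 50.5% with median-of-ratios scaling, 81.3% with equal totals and 98.8% relative to fibre markers. *Utrn* stayed above 0 in all of these, and after quantile normalization, at 0.35, it was not called (adjusted p = 0.0518). On the deposited scale 10 of 14 mature fibre markers were lower as well (0 of 14 with mouse as a block), and their part in the members' result was not tested.

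**Figure D4:**
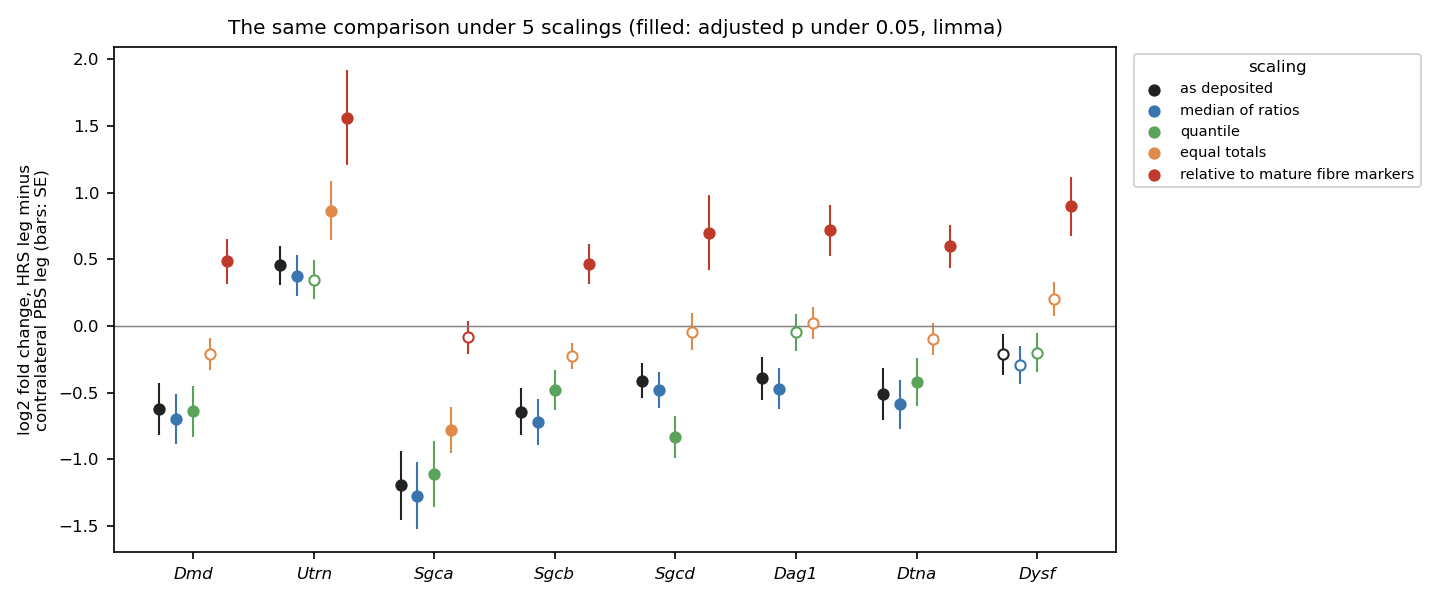
Log2 fold change of the HRS against the contralateral PBS leg (y axis, bars are SE) for each member with the libraries scaled in 5 ways, filled where the adjusted p was under 0.05 in limma. Relative to mature fibre markers all members but *Sgca* lie above 0, and *Utrn* is above 0 under each scaling.

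In the ratio of *Utrn* to *Dmd* within a library the factor by which that library was scaled cancels, apart from the 0.5 added to each value before the log. Its log2 value in the HRS legs of m862 to m866 was -0.54, 0.01, 0.27, -0.24 and -1.20. In the contralateral PBS legs it was -1.93, -1.72, -1.58, -1.56 and -0.29. In m862 to m865 the HRS leg was higher, and m866 had the 2 legs in the opposite order. PBS-only legs had -1.33, -1.59, -1.33 and -1.28, and the HRS-MBP mice had -0.13 and -0.11. The mean was 1.08 higher in HRS than in contralateral PBS legs (exact permutation p = 0.0238, two-sided) and 1.04 higher than in PBS-only legs (exact permutation p = 0.0159, taking 4 legs of 2 mice as 4 samples), where HRS legs did not overlap PBS-only legs. Over the leg pairs the exact sign-flip p was 0.13, with 4 of 5 mice higher. HRS-MBP mice were 1.26 above PBS-only legs, with an exact permutation p of 0.0667, the smallest possible. Contralateral PBS legs differed from PBS-only legs by -0.04 (exact permutation p = 0.984), and HRS-MBP mice from HRS legs by 0.21 (exact permutation p = 0.667). Leaving out any 1 of 7 legs other than those of m866 and the HRS leg of m862 brought the first exact permutation test to p = 0.0556. The mean difference of 1.08 adds the fall of *Dmd* to the rise of *Utrn*.

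**Figure D5:**
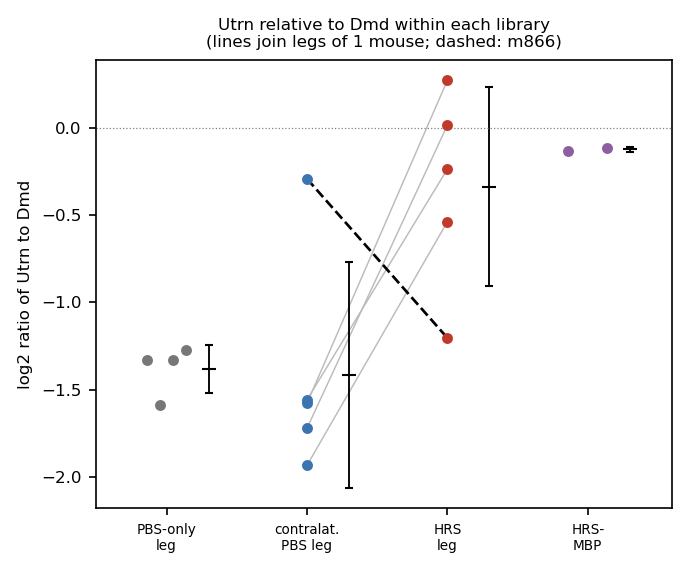
Log2 ratio of *Utrn* to *Dmd* (y axis) in each library of the 4 groups (x axis), with the mean and SD beside the points and lines joining the legs of 1 mouse. The lines of 4 mice rise from -1.93 to -1.56 in the PBS leg to -0.54 to 0.27 in the HRS leg, and the dashed line of m866 falls.

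The ratios of other members to *Dmd*, formed in the same way, are given as values without a test. The mean log2 ratio of *Sgcb* to *Dmd* was 1.17 ± 0.12 in HRS legs and 1.19 ± 0.09 in contralateral PBS legs (SD, n = 5), and that of *Dtna* to *Dmd* 0.76 ± 0.08 and 0.65 ± 0.08. The ratio of *Sgca* to *Dmd* was 0.47 ± 0.30 in HRS legs against 1.04 ± 0.11, and the ranges of 0.15 to 0.92 and 0.87 to 1.13 overlapped only slightly. The ratio of *Dysf* to *Dmd* was 0.31 ± 0.29 against -0.10 ± 0.12, and that of *Dag1* to *Dmd* 2.51 ± 0.18 against 2.28 ± 0.21. The ratio of *Sgcd* to *Dmd* was -3.61 ± 0.36 against -3.83 ± 0.25, and as the least abundant member it is touched most by the added 0.5. These groups differed by less than 1 SD for *Sgcb* and *Sgcd*, while the proportion of *Sgca* was lower and those of *Dysf*, *Dag1* and *Dtna* higher in HRS legs by more than the SD of either group. PBS-only legs gave another order (n = 4 legs of 2 mice). Their ratio to *Dmd* was 2.47 ± 0.10 for *Dag1*, 0.19 ± 0.17 for *Dysf* and -3.72 ± 0.29 for *Sgcd*, within 1 SD of the HRS legs. It was 0.98 ± 0.13 for *Sgca*, 0.63 ± 0.07 for *Dtna* and 1.32 ± 0.03 for *Sgcb*, so that against these legs *Sgca* and *Sgcb* were lower and *Dtna* higher in HRS legs by more than 1 SD.

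The other genes of the complex were read in a list of 13, of which 12 were in the table and 10 passed the filter on low values, *Sntg1* and *Sntg2* being below it. Between the legs of immunized mice 4 were lower, 2 were higher and 4 did not pass the test, beside 25.9% lower and 35.1% higher of all tested genes. With mouse as a block 3 were lower and 2 higher, where 2651 genes were lower and 4569 higher of all 16414 tested. *Nos1*, the neuronal nitric oxide synthase that syntrophin anchors to the complex, fell by 1.98 (SE 0.31, adjusted p = 0.000129, limma), from 86.7 ± 16.9 normalized counts in contralateral PBS legs to 25.2 ± 19.3 in HRS legs (SD, n = 5). *Sspn*, for sarcospan, fell by 0.45 (adjusted p = 0.0356), a call lost with mouse as a block (adjusted p = 0.123, limma). *Sntb2*, for beta-2-syntrophin, which is found with utrophin, rose by 1.39 (adjusted p = 0.000123), from 12.0 ± 3.46 to 32.3 ± 8.63. *Dtnb*, for beta-dystrobrevin, rose by 1.02 (adjusted p = 0.00212), from 0.857 ± 0.117 to 2.43 ± 1.03. *Sgce* (0.35), *Sntb1* (-0.27), *Drp2* (0.23) and *Cav3* (-0.04) did not pass the test. Relative to mature fibre markers *Nos1* was the only one of the 10 still lower, at -0.87, and 7 were higher, among them *Sspn* at 0.66, where 13414 of 16414 genes were higher.

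Of 17 genes that link the complex to the matrix and the cytoskeleton, 8 were higher and 4 lower in the HRS leg, beside 35.1% higher and 25.9% lower of all tested genes. Relative to mature fibre markers 15 were higher and 1 lower, where 13414 of all 16414 tested genes were higher and 160 lower. With mouse as a block 5 were higher and 2 lower, where 4569 genes were higher and 2651 lower. *Bgn*, for the matrix proteoglycan biglycan, rose by 2.65 (adjusted p = 0.000202, limma), *Lamb1* by 1.27 (adjusted p = 0.00513) and *Lama4* by 1.03 (adjusted p = 0.00552), both for laminin chains. With mouse as a block the adjusted p was 0.0503 for *Lamb1* and 0.0576 for *Lama4* in limma. *Synm*, for the intermediate filament protein synemin, fell by 1.48 (adjusted p = 0.00221), from 873 ± 194 to 362 ± 243 normalized counts, and remained lower relative to fibre markers, at -0.37. The 7 fibroblast markers, which include matrix genes, were all higher in the same comparison, and their part in this list was not tested.

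Dystroglycan binds laminin only through its sugar chains, and of 18 tested genes of their synthesis 8 were lower and 3 higher, beside the same 25.9% and 35.1% of all genes. Relative to mature fibre markers the count turned, with 0 lower and 13 higher, where 13414 of 16414 genes were higher. *B3galnt2* fell by 0.99 (adjusted p = 0.00574, limma), *Dpm1* by 0.97 (adjusted p = 0.000806) and *Pomgnt2* by 0.90 (adjusted p = 0.00227), but relative to fibre markers these 3 had log2 fold changes of 0.12 to 0.21 and were not called. In the list of 29 other membrane repair genes 14 were higher and 6 lower, and relative to mature fibre markers 24 were higher and 0 lower. The lowest log2 fold change of this list was -1.30 as deposited, and the 4 genes with the largest changes all rose. *Myof*, for myoferlin, a ferlin of fusing myoblasts and a relative of dysferlin, rose by 2.64 (adjusted p = 1.95e-05), from 9.92 ± 2.87 to 70.7 ± 35.4 normalized counts. Next came 3 annexins, a family whose members gather at membrane tears and are also made by immune and stromal cells: *Anxa4* rose by 1.999 (adjusted p = 2.01e-05), *Anxa2* by 1.90 (adjusted p = 5.9e-05) and *Anxa5* by 1.59 (adjusted p = 0.000431). Of the other annexins in the list, named here after their values were seen, *Anxa1* rose by 1.57 and *Anxa7* by 0.84, while *Anxa6* had a log2 fold change of -0.088 (adjusted p = 0.356, limma). The medians of the lists were -0.16 for the other complex genes, 0.29 for linkage, -0.24 for glycosylation and 0.16 for repair, beside 0.08 for all tested genes. Without the HRS leg of m866, where 38.2% of all genes were higher and 30.2% lower, the counts of higher and lower genes were 2 and 4 for the other complex genes, 8 and 5 for linkage, 3 and 10 for glycosylation and 15 and 9 for repair.

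The patterns most like each member were sought over all 16 libraries among 11247 genes with a mean of at least 5, as Pearson's r after removal of the group means, so that only the spread within groups counts. The nearest genes were *Klhl12* (0.99) and *Ubr3* for *Dmd*, and *Tmod1* (0.99), *Tcea3* and *Nipsnap2* for *Sgca*. For *Sgcb* they were *Neb* (0.99), *Ttn* and *Bves*, and for *Dtna* *Mypn* (0.98) and *Myom2*. For *Dag1* they were *Samd4* (0.96), *Erc1* and *Zfp672*, and for *Dysf* *Samd4* again (0.93), *Hipk4* and *Ccdc88c*. *Utrn* had *Afap1* (0.93), *Rad51d* and *Plekha4*, and *Sgcd* had *Tsfm* (0.87), *Dach1* and *Nedd4l*, the lowest values of the 8. Among the members *Dmd* followed *Sgcb* and *Dtna*, each with r = 0.97, and *Utrn* ran against all other members, with r from -0.49 to *Dmd* to -0.19 to *Dag1*. Without the HRS leg of m866 the r of *Utrn* weakened to -0.40 with *Dmd*, -0.15 with *Sgcd* and -0.07 with *Dag1*, while the nearest genes named above kept r of 0.80 to 0.99. The libraries share their scaling, and the values are descriptions over 16 libraries and carry no test.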

How the data were processed

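The authors deposited 1 table of normalized counts for hamstring RNA, a non-negative linear signal. The submitters' processing notes name STAR 2.7.8a, limma and the build mm39 (GRCm39), while the gene positions of the table equal those of GENCODE M21 on GRCm38, which were used. The scaling the authors applied and their use of strand are not given in the sources used here. Library totals ran from 726800 to 1252400, and since multiples of a single step made up only 75.4% to 77.7% of low values, reads were not recovered and no count model was run.

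Groups followed the titles and treatment entries. The tests used limma 3.58.1 in R 4.3.3 (lmFit and trended eBayes) after adding 0.5 and taking log2, for the 16414 genes whose mean reached 0.5, in 1 fit of 4 groups, with Benjamini-Hochberg adjustment over all tested genes and calls at 0.05. Fold changes are on that scale and understate changes of low genes. The fit was tested on simulated data. Single members were also compared by exact permutation of libraries and exact sign flips of leg pairs, both two-sided. Legs of 1 mouse are paired because they come from 1 animal, although the deviations of paired legs from their group means correlated weakly, at 0.12, 0.16, 0.10, -0.03 and -0.37 in m862 to m866. Promoter windows came from RefSeq. Alternatives covered pseudocount, filter, 4 other scalings, mouse as a block, averaged PBS-only legs and libraries left out. The members, the pathway lists and the marker lists were chosen with earlier results of these data known. Named genes were all members, all other complex genes, up to 4 called genes with the largest change in each other pathway list and the 3 genes nearest to each member, of which a few are not reported here. Human samples and single cells were not analysed here.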

Additional observations from a re-analysis of the deposited data

Results flagged for a closer look

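Over 27 groups of member levels and ratios, each examined for a library far from the rest of its group, 3 values stood apart, and all 3 belonged to the right, PBS-injected leg of mouse m866. Its *Utrn* level was 41.0 normalized counts, where the other 4 contralateral PBS legs had 21.4 to 25.7. Its *Sgcb* level was 123.57, where the others had 170.51 to 187.74. Its log2 ratio of *Utrn* to *Dmd* was -0.29, where the others had -1.93 to -1.56, and the range in HRS legs was -1.20 to 0.27. Chance alone finds such a library in about 1 group of 20, and the 3 values are of 1 library and share genes. The same leg had a mature fibre sum of 171090, the lowest of the contralateral PBS legs, and an immune sum of 223, within their range of 88.8 to 256. Its Schwann cell marker sum of 437 was the highest of all 16 libraries, where the other contralateral PBS legs had 85.3 to 170 and the next highest library, a PBS-only leg, had 227. Why this leg stood apart was not tested.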

How the results depend on the processing

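The limits are few animals, a normalized table without recoverable reads, and scaling. Of the values tried under alternatives, those of the members against contralateral PBS legs kept their direction and side of the threshold in 168 of 224 cases, lost the call in 39 and reversed in 17. Against PBS-only legs the counts were 165 of 208, with 25 losing and 6 gaining a call and 12 reversed. Fits with other pseudocounts or filters on low values changed no count of called members by more than 1.5 times. The cause of the changes below was not tested.

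After quantile normalization 0 members were called higher against either PBS group, where 4153 genes were higher against contralateral and 4140 against PBS-only legs. For contralateral against PBS-only legs *Dmd* was -0.014 and *Dtna* -0.0064. With median-of-ratios scaling 0 were called higher against PBS-only legs, where 5257 genes were higher. On that scale *Dmd* was -0.037 and *Dtna* -0.014 between the PBS groups, and *Utrn* was 0.034 in HRS-MBP against HRS legs. With equal totals 1 member was called lower against contralateral and 2 against PBS-only legs, where 2066 and 1944 of all 16414 tested genes were lower. In HRS-MBP against PBS-only legs 1 was higher, where 7702 genes were. On that scale *Dag1* became 0.024 and *Dysf* 0.20 between legs, and *Utrn* 0.040 in HRS-MBP against HRS legs.

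Relative to mature fibre markers, where brackets hold the members that changed sign, called or not, and *Utrn* was called higher without a change of sign, 0 members were lower and 7 higher against contralateral legs (*Dmd* 0.49, *Sgcb* 0.47, *Sgcd* 0.70, *Dag1* 0.72, *Dtna* 0.60, *Dysf* 0.90), 0 lower and 5 higher against PBS-only legs (*Dmd* 0.43, *Sgcb* 0.27 and *Sgcd* 0.53, both not called, *Dag1* 0.47, *Dtna* 0.56, *Dysf* 0.54), and 0 lower and 2 higher in HRS-MBP against PBS-only legs (*Dmd* 0.49, *Sgca* 0.094, *Sgcb* 0.29, *Sgcd* 0.24, *Dag1* 0.25, *Dtna* 0.53, *Dysf* 0.39). Of all 16414 tested genes 13414, 12708 and 12206 were higher in these comparisons, in the same order. Between the PBS groups *Dmd* became -0.060, *Sgca* -0.00057 and *Dtna* -0.036, and in HRS-MBP against HRS legs *Dmd* became 0.063, *Utrn* 0.28, *Sgca* 0.18 and *Sgcb* 0.021. Chosen after seeing the data, the same scaling without both libraries of m866 gave 0 lower and 7 higher against contralateral legs (*Dmd* 0.59, *Sgcb* 0.59, *Sgcd* 1.003, *Dag1* 0.95, *Dtna* 0.73, *Dysf* 1.14) and 0 lower and 7 higher against PBS-only legs (*Dmd* 0.52, *Sgcb* 0.37, *Sgcd* 0.72, *Dag1* 0.64, *Dtna* 0.66, *Dysf* 0.73). There 14644 and 14062 of all 16414 tested genes were higher, so that these counts are near the share of all genes. Equal totals without m866, also chosen afterwards, gave 3 lower against contralateral and 2 against PBS-only legs, where 2269 and 2324 of all 16414 tested genes were lower. Between legs *Sgcd* (0.037), *Dag1* (0.054) and *Dysf* (0.24) changed sign without being called.

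With mouse as a fixed replicate block 1 member was called lower and 0 higher between paired legs, where 2651 genes were lower and 4569 higher of all 16414 tested. With mouse as a random block 5 were lower and 1 higher, where 3948 genes were lower and 5507 higher. With only the groups compared in the fit 1 member was higher in HRS-MBP against PBS-only legs, where 5480 genes were higher. With PBS-only legs averaged by mouse 3 were lower and 0 higher in HRS against PBS-only legs, where 2371 genes were lower and 5233 higher. Without both libraries of m866 1 was higher in HRS-MBP against PBS-only legs, where 6014 genes were higher, and *Sgca* was 0.14 against HRS legs. Without both libraries of m864 3 were lower and 0 higher between legs, where 3220 genes were lower and 4692 higher. In the same setting *Utrn* was 0.035 between the PBS groups, and 2 members were lower in HRS-MBP against HRS legs, where 251 genes were lower.

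Leaving out 1 library at a time, the members called lower were 4 to 6 against contralateral legs, 5 to 7 against PBS-only legs and 0 to 2 in HRS-MBP against HRS legs. In HRS-MBP against PBS-only legs *Dag1* ran from -1.30 to -0.86, *Dysf* from -1.13 to -0.75 and *Dtna* from -0.92 to -0.68. Members called higher against PBS-only legs were 0 to 1. The log2 ratio of *Utrn* to *Dmd* ran from 0.93 to 1.36 against contralateral and from 0.89 to 1.26 against PBS-only legs, from -0.32 to 0.094 between the PBS groups and from -0.0018 to 0.37 in HRS-MBP against HRS legs. Against contralateral legs *Dag1* ran from -0.48 to -0.25 and *Dtna* from -0.66 to -0.34. Between the PBS groups *Dmd* ran from -0.039 to 0.15, *Utrn* from -0.16 to 0.066 and *Dtna* from -0.044 to 0.14. In HRS-MBP against HRS legs *Utrn* ran from -0.096 to 0.015 and *Sgca* from -0.37 to 0.14.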
